A study of Mus musculus with 42 samples.

Results

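The 121 olfactory receptor (OR) genes described here are those named Olfr1112 to Olfr1272, without Olfr1160 and without pseudogene names, that were listed in all 9 deposited tables. They were chosen by name alone, out of 1088 intact ORs in the 8 odor tables and 1087 in the table of dorsal and ventral mucosa. By their RefSeq annotation on GRCm38 they lie on chromosome 2 between 87191689 and 90282573, a stretch of 3.09 Mb within the large OR cluster of that chromosome. Of the 119 genes with a GENCODE M21 transcript, 45 are on the plus strand and 74 on the minus strand, and 119 of the 121 carry a MOR name, which places an OR in a sequence family. They fall into 18 such families.

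ORs are G protein-coupled receptors of the olfactory sensory neurons (OSNs). A mature OSN is known to express a single OR allele, and the OSNs of one OR are scattered within a limited band of the epithelium between its dorsomedial and ventrolateral ends, which is called the zone of that OR. Class I ORs resemble those of fish and are mostly dorsal, whereas class II ORs, to which the chromosome 2 cluster belongs, are found in all zones. When an odorant activates an OSN, ribosomal protein S6 becomes phosphorylated (pS6), so that immunoprecipitation of pS6 brings down the mRNA of the active neurons, and with it the mRNA of their OR. For most of the 121 receptors no natural ligand is established, and they are grouped below by gene position and by family.

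In the odor experiments, C57BL/6 mice (C57BL/6J by the study's methods) aged 20 to 22 d were kept for 1 h with acetophenone (ACT), with trimethylthiazoline (TMT) or without odor, 3 mice to a group, and their olfactory epithelium was taken for pS6-IP-Seq. Each odorant was given at 100% and in dilutions (v/v) to 1%, 0.1% and 0.01%. ACT is an aromatic ketone with a sweet smell, and TMT is a sulfur-containing component of fox odor that mice avoid. The 2 lower concentrations of an odorant were set against one set of 3 no odor mice and the 2 higher ones against another set, so that comparisons within such a pair are not independent. In a second experiment, total RNA of dissected dorsal and ventral olfactory mucosa of mice of the same strain and age was sequenced, with 3 libraries of each. Each replicate number stands for littermates of the same sex in the odor experiments. No transgene or deletion was involved.

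The 36 pS6 libraries had 37012 to 128805 counts on ORs, and the 6 libraries of mucosa had 155319 to 242123. Over all pS6 libraries together, the 121 ORs had between 1 and 12790 counts each (median 1066), and 31 of them had a median of fewer than 10 counts in the no odor libraries, where a change by a small fold could not be detected. The tables hold ORs only, so markers of OSNs, of other cell types and of neuronal activity could not be read. In such tissue libraries fewer cells of a type and less RNA per cell cannot be told apart. The 0.01% ACT library of replicate 1 had the lowest mean correlation with the other replicates of its group (0.827, across 1088 ORs, against at most 0.922 in pS6 libraries). The dorsal libraries had 0.874 to 0.916 and the ventral libraries 0.967 to 0.968.

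The labels of dorsal and ventral mucosa were checked with class I ORs, which do not belong to the cluster. Of 120 class I ORs 114 were significantly higher in dorsal mucosa by the edgeR quasi-likelihood test described next (median log2 fold change 4.28). They took 32.4%, 25.7% and 33.7% of the OR counts in dorsal libraries, against 2.1%, 3.4% and 3.4% in ventral libraries. The dorsal library of replicate 2 had the lowest share of class I ORs of the 3 dorsal libraries.

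Most of the 121 ORs were ventral, and all of the dorsal ones lay before Olfr1178, 14 of the 21 of them from Olfr1154 to Olfr1176. Here and below, a gene is called at an adjusted p below 0.05 (edgeR quasi-likelihood test with the replicate as a block, Benjamini-Hochberg over all ORs), and log2 fold changes are given with an SE derived from the same test. Of the 121 ORs, 72 were significantly higher in ventral mucosa and 21 in dorsal mucosa, and 28 did not pass the test. Over all ORs tested, 37.4% were called higher in dorsal mucosa and 37.2% higher in ventral mucosa. The median log2 fold change (dorsal over ventral) was -2.22 for the 121 ORs and -0.65 for all ORs, a difference of -1.57. That difference was between -1.52 and -1.53 when libraries were scaled without TMM, by size factors of all genes or by DESeq2, although these moved the median of all ORs to -1.24, -1.07 and -0.42.

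The 121 ORs together took 5.66%, 6.66% and 5.52% of the OR counts in dorsal mucosa, against 13.43%, 13.48% and 13.19% in ventral mucosa. The groups did not overlap, and the share averaged 5.95% ± 0.62 in dorsal and 13.37% ± 0.16 in ventral mucosa (SD, n = 3 each), with an exact two-sided permutation p of 0.1, the smallest that 3 against 3 libraries can give. Adjusted over the 9 comparisons of this share that were made, p was 0.3.

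Along the chromosome the log2 fold changes often formed blocks. In the first part calls also switched between neighbors, as from Olfr1112 (-2.87) to Olfr1113 (2.19). Whether the blocks exceed those of a random order was not tested. The largest step between neighbors lay between Olfr1176, with 4.29, and Olfr1178, with -4.87, a difference of -9.16 across a gap of 50.7 kb from 88340514 to 88391249. The median step between neighbors was 0.839 and the next largest was 5.847, at Olfr1163. This position was picked after the values were seen and carries no test of its own. Of the 44 ORs from Olfr1112 to Olfr1176, 21 were called dorsal, 10 ventral and 13 neither (median 1.19). Of the 77 ORs from Olfr1178 to Olfr1272, 0 were called dorsal, 62 ventral and 15 neither (median -3.46). None of those 77 was called dorsal by DESeq2 or under any of the other settings listed in the closing section, and 0 had an unadjusted p below 0.05 in that direction.

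**Figure D1:**
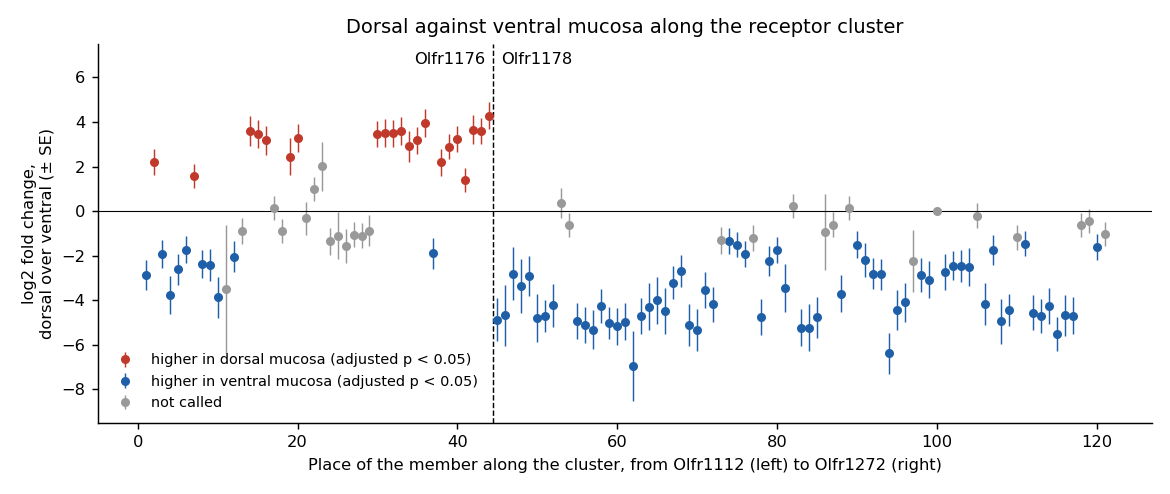
Log2 fold change of dorsal over ventral mucosa (± SE, 3 libraries each) for the 121 ORs in chromosome order, red where called higher in dorsal mucosa, blue where called higher in ventral mucosa and gray where not called. Up to Olfr1176 red, blue and gray points alternate, singly or in blocks, and from Olfr1178 on no point is red. The fitted values of Olfr1128 and Olfr1201, which had 0 counts in every dorsal library, are not bounds on their change, and Olfr1248, with 0 counts in all 6 libraries, is drawn at 0.

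The shares of counts on either side describe the same step, which was picked from these counts, and are no further support for it. The 44 ORs up to Olfr1176 took 4.62%, 3.99% and 4.69% of OR counts in dorsal libraries, against 1.65%, 1.74% and 1.84% in ventral libraries. The 77 ORs from Olfr1178 took 1.04%, 2.67% and 0.83% in dorsal libraries, against 11.78%, 11.74% and 11.35% in ventral libraries. Dorsal and ventral libraries were apart on both sides, in opposite directions. Dorsal replicate 2 held the most counts of the ventral side among the dorsal libraries, and it is also the one with the lowest class I share given above. Whether admixed ventral tissue had a part in this was not tested. Without replicate 2, 22 and 12 of the 44 ORs were called dorsal and ventral, and 0 and 50 of the 77.

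**Figure D2:**
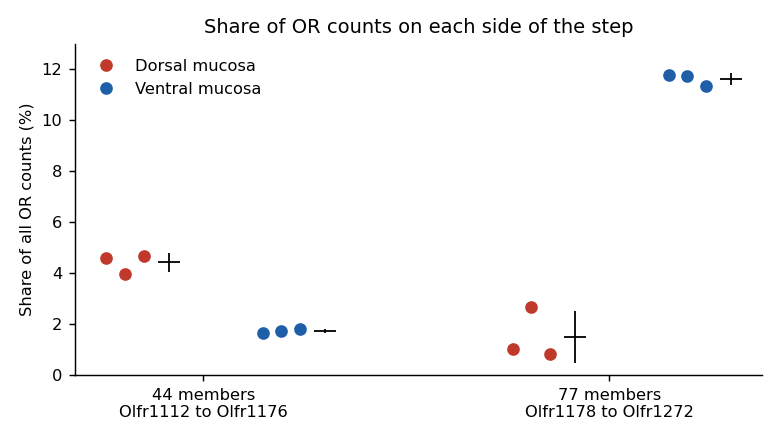
Share of all OR counts (%) taken by the 44 ORs up to Olfr1176 and by the 77 ORs from Olfr1178, in each dorsal (red) and ventral (blue) library, with the mean and SD of 3 libraries in black. On the left the dorsal libraries lie above the ventral ones, and on the right they lie below, with dorsal replicate 2 at 2.67% above the other dorsal libraries.

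The strongest dorsal members were neighbors. Olfr1176 had 8106, 5256 and 9538 counts in a total of 1000000 OR counts (CPM) in dorsal libraries, against 262, 477 and 433 CPM in ventral libraries (log2 fold change 4.29 ± 0.60, adjusted p = 0.000152, edgeR). Olfr1162 had 6192, 3897 and 8056 CPM in dorsal libraries, against 219, 503 and 469 CPM in ventral libraries (3.95 ± 0.62). Olfr1173 had 6631, 4944 and 8618 CPM in dorsal libraries, against 350, 774 and 610 CPM in ventral libraries (3.58 ± 0.59). In each of them the lowest dorsal library was replicate 2 and no dorsal library came near a ventral one. Olfr1170 (3.66 ± 0.65), Olfr1157 (3.58 ± 0.63), Olfr1155 (3.51 ± 0.64) and Olfr1156 (3.48 ± 0.61) had the same order of levels at 2014 to 4312 CPM in dorsal libraries, against 121 to 353 CPM in ventral libraries. Olfr1131, which lies apart from these in a group of 3 dorsal genes that runs to Olfr1133, was less abundant, with 788, 505 and 982 CPM in dorsal libraries, against 43.7, 103 and 45.4 CPM in ventral libraries (3.59 ± 0.69). All 8 were called under each alternative setting.

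A single family held 11 of the 21 dorsal members. MOR174 has 12 members, from Olfr1155 to Olfr1176, and 11 of them were called dorsal (median 3.36, from -1.89 to 4.29), as were both members of MOR173, Olfr1154, just before them, and Olfr1158, among them. The exception was Olfr1163, with 45.5, 99.8 and 13.5 CPM in dorsal libraries, against 160, 163 and 202 CPM in ventral libraries (-1.89 ± 0.70, adjusted p = 0.0269, edgeR). It is flanked on both sides by runs of 7 dorsal ORs, Olfr1154 to Olfr1162 and Olfr1164 to Olfr1176, and 8.51% of the 50-base stretches of its transcripts also occur in Olfr1162. Its counts were 9, 16 and 2 in dorsal libraries, against 33, 38 and 40 in ventral libraries, and the call was lost under DESeq2 and without replicate 1 or replicate 3.

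MOR174 could also be told from its neighbors by a codon. Near the end of the third transmembrane segment ORs carry the DRY motif, which takes part in G protein coupling, and the 30 bases of coding sequence around it are given for members on both sides of the step, with the codons of the motif in capitals (GRCm38, GENCODE M21 transcripts, 5′ to 3′ in the direction of the gene). The third capital codon was TTT or TTC in all 12 members of MOR174 and in Olfr1173, and TAT or TAC in 104 of the 119 members with a GENCODE transcript. Olfr1181 and Olfr1184 of MOR225 had TGT and TGC. The codon was looked at after the zones were known, and no relation to them was tested.
Olfr1157: atggcctatGACCGTTTTgtagccatctgt
Olfr1163: atggcttatGATCGCTTCgtggccatctgt
Olfr1170: atggcctatGACAGGTTTgtggctgtttgt
Olfr1173: atggcctatGACAGGTTTgtggctgtttgc
Olfr1176: atggcctatGATCGCTTTgtggccatttgt
Olfr1179: atggcctatGACCGCTACgtggccatctgc
Olfr1196: atggccttgGACCGCTATgttgccattgtc
The stretch of Olfr1176 lies at chr2:88339921-88339950 on the plus strand. The exception in zone, Olfr1163, carries the TTC form of its family.

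Before MOR174, the stretch from Olfr1112 to Olfr1153 was mixed. MOR264, with 14 members spread over places 1 to 26 of the 121, had 9 ventral and 2 dorsal members (median -1.98), and the dorsal ones were Olfr1113 (2.19) and Olfr1122 (1.57). MOR177, with 12 members, had 4 dorsal members and 8 that were not called (median 0.33). Its calls changed with the scaling, with 3 dorsal and 4 ventral members without TMM, and 4 of each with size factors of all genes. The dorsal members of MOR177, Olfr1131, Olfr1132, Olfr1136 and Olfr1137, lay on both sides of Olfr1133 and Olfr1134 of MOR176. Olfr1133 was called dorsal (3.17 ± 0.63), with 2657, 1496 and 3100 CPM in dorsal libraries, against 228, 318 and 232 CPM in ventral libraries. Its neighbor Olfr1134 of the same family had 369, 256 and 291 CPM in dorsal libraries, against 267, 254 and 312 CPM in ventral libraries (0.13 ± 0.53, adjusted p = 0.845, edgeR), and the groups overlapped. The 9 ORs from Olfr1138 to Olfr1153 that followed were all left without a call, with log2 fold changes from -1.57 to 2.02.

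From Olfr1178 on, no family had a dorsal member and the larger families were mostly ventral. All 11 members of MOR225, all 8 of MOR230 and all 3 of MOR234 were called ventral, as were 6 of 7 in MOR232, 15 of 18 in MOR233 and 14 of 17 in MOR231. In the small families the calls were fewer, with 1 of 3 ventral in MOR227, 1 of 2 in MOR228, 0 of 1 in MOR235 and 0 of 2 in both MOR237 and MOR238, while the single members of MOR226 and MOR236 were ventral. The first 8 ORs after the step, Olfr1178 to Olfr1186, and the 18 from Olfr1193 to Olfr1214, over 310.3 kb, were unbroken runs of ventral calls. They are parted by Olfr1188 (0.37 ± 0.66) and Olfr1189 (-0.63 ± 0.54). Olfr1188 belongs to MOR238, whose other member Olfr1233 (0.14 ± 0.54) also lay without a call between ventral neighbors, far along the cluster. Olfr1189 likewise shares its family, MOR237, with a distant OR that was not called, Olfr1230, which had 3 dorsal and 8 ventral counts in all.

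The ventral members with the largest fold changes were nearly absent from dorsal libraries. Olfr1196 had 10.1, 218 and 230 CPM in dorsal libraries, against 4367, 4723 and 4339 CPM in ventral libraries (-5.33 ± 0.87). Olfr1263 had 15.2, 93.5 and 94.8 CPM in dorsal libraries, against 2677, 2835 and 2479 CPM in ventral libraries (-5.50 ± 0.77). Olfr1226 had 15.2, 200 and 203 CPM in dorsal libraries, against 4178, 4306 and 3714 CPM in ventral libraries (-5.24 ± 0.83). In these, dorsal replicate 1 was the lowest library. Olfr1241 had 0, 5 and 1 counts in dorsal libraries, against 206, 228 and 155 counts in ventral libraries (-6.39 ± 0.91, adjusted p = 0.000152, edgeR). Olfr1199 had 0, 1 and 3 counts in dorsal libraries, against 56, 80 and 56 counts in ventral libraries (-5.17 ± 0.84). All 5 of these members were called under each alternative setting. Other ventral members kept clear dorsal levels, such as Olfr1222, with 793, 1347 and 454 CPM in dorsal libraries, against 2711, 2375 and 2842 CPM in ventral libraries (-1.74 ± 0.59), and Olfr1112, with 121, 424 and 74.5 CPM in dorsal libraries, against 1482, 1045 and 1018 CPM in ventral libraries (-2.87 ± 0.69). These 2 were picked after their values were seen.

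Some calls rested on few counts or on single libraries. Olfr1212 had 0, 43.6 and 88 CPM in dorsal libraries, against 1394, 1734 and 1013 CPM in ventral libraries (-5.34 ± 0.95). Olfr1228 had 5.05, 43.6 and 196 CPM in dorsal libraries, against 2196, 2611 and 1084 CPM in ventral libraries (-5.24 ± 1.05). Both were called, but not without replicate 2 (-5.00 and -4.33). Olfr1201 had 0 counts in all 3 dorsal libraries, against 18, 28 and 6 counts in ventral libraries, so that it was at least 13.8-fold higher in ventral mucosa when the dorsal libraries together are given a floor of 3 counts. Its call (adjusted p = 0.00203, edgeR) was likewise lost without replicate 2. Intervals and floors of this kind cover counting error only, since the reads carry no molecular identifiers. Olfr1128 also had 0 counts in every dorsal library, against 4 counts in ventral libraries together, and Olfr1248 had 0 counts in all 6 libraries. With Olfr1201 and Olfr1128 set at their bounds and Olfr1248 left at 0, the median of the 121 log2 fold changes was -2.18.

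The number of zone calls depended on the libraries. Without replicate 1 of both groups 58 of the 121 ORs were called (15 dorsal and 43 ventral, against 31.3% and 18.9% of all ORs). Without replicate 2 it was 84 (22 and 62, against 37.4% and 37.7% of all ORs), and without replicate 3 it was 62 (17 and 45, against 32.5% and 18.5% of all ORs). With all libraries it was 93. Of the 93 calls 43 were made under each of the 9 alternative settings, and none of the 93 changed sign under any of them.

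The adjoining parts of the chromosome 2 cluster were unlike at either end. Of the 83 ORs from Olfr987 to Olfr1111, which precede the stretch, 53 were called dorsal and 12 ventral. Of the 36 ORs from Olfr1275 to Olfr1318, which follow it, 32 were called ventral. The 121 ORs between them held blocks of both kinds.

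At 100% TMT, 11 of the 121 ORs were significantly enriched and 2 were depleted relative to no odor, against 11.6% of all ORs called higher and 3.31% called lower. The share among the 121 was close to that of all ORs. Among the called members, the largest log2 fold changes were those of the neighbors Olfr1133 and Olfr1132, and the enriched ORs included 4 with a dorsal call, 5 with a ventral call and 2 with neither. The split depended on the scaling: 8 higher and 5 lower without TMM (9.65% and 9.28% of all ORs), 7 and 8 with size factors of all genes (9.10% and 11.3%), and 8 and 0 by DESeq2 (9.74% and 0.919%), where the median log2 fold change of all ORs was -0.32, -0.38 and -0.08 against -0.08 with TMM.

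Neighboring receptors of the mixed stretch rose together. Olfr1133 of MOR176 had 1190, 1246 and 1497 CPM at 100% TMT, against 120, 299 and 245 CPM with no odor (2.61 ± 0.38, adjusted p = 4.25e-10, edgeR). Olfr1134, also of MOR176, had 786, 1169 and 902 CPM at 100% TMT, against 376, 299 and 294 CPM with no odor (1.53 ± 0.40, adjusted p = 0.00138). Olfr1132 of MOR177 had 808, 584 and 663 CPM at 100% TMT, against 346, 64.1 and 147 CPM with no odor (1.97 ± 0.49, adjusted p = 0.000732). In all of them the groups did not overlap, which held for 31 members at 100% TMT, called or not. The share of all ORs with such groups was not counted. Olfr1133 and Olfr1134 are not fully separable by counting, since 13.3% of the 50-base stretches of Olfr1133 occur in Olfr1134 and 9.31% of those of Olfr1134 occur in Olfr1133, while 0.561% of those of Olfr1132 occur in any other OR transcript. Without replicate 2, Olfr1132 (1.60) and Olfr1134 (1.32) were no longer called. The flanking genes of the same families did not pass the test: Olfr1131 had 0.78 ± 1.02, Olfr1135 -0.06 ± 0.67, Olfr1136 -0.04 ± 2.21 and Olfr1137 1.34 ± 0.78.

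Olfr1154 of MOR173, 1 of the dorsal run, had 1020, 1344 and 1633 CPM at 100% TMT, against 451, 577 and 416 CPM with no odor (1.44 ± 0.32, adjusted p = 0.000128, edgeR). Olfr1166 of MOR174 had 298, 428 and 834 CPM at 100% TMT, against 165, 171 and 147 CPM with no odor (1.54 ± 0.50, adjusted p = 0.019). The groups did not overlap in either. The call of Olfr1166 was lost without replicate 2 (1.66) or replicate 3 (1.07) and without TMM, and 19.3% of its 50-base stretches occur in other ORs, mostly in Olfr1170, which had 0.02 ± 0.43 at 100% TMT. The stretches around the DRY motif are given for the enriched receptors of MOR177 (Olfr1132), MOR176 (Olfr1133 and Olfr1134) and MOR173 (Olfr1154), to show how alike the members of MOR176 are, with the codons of the motif in capitals as above.
Olfr1132: atggcctatGACAGATACcaggccatcagt
Olfr1133: atggcctatGATCATTATgttgccatctgc
Olfr1134: atggcctatGATCGTTATgttgccatctgc
Olfr1154: atggcttatGACAGGTACattgcaatttgt
Between Olfr1134 and Olfr1133, the 30 bases differed at 1 position, G14A, counted from 1 at the 5′ end with the base of Olfr1134 first, which lies in the second codon of the motif.

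The 6 other enriched receptors lay on the ventral side of the step. Olfr1243 of MOR231 had 1063, 1091 and 936 CPM at 100% TMT, against 331, 299 and 343 CPM with no odor (1.66 ± 0.38, adjusted p = 0.000234, edgeR). Olfr1231 of MOR235 had 1020, 954 and 1361 CPM at 100% TMT, against 692, 321 and 269 CPM with no odor (1.40 ± 0.35, adjusted p = 0.000906). Olfr1238 of MOR231 had 1126, 1831 and 1310 CPM at 100% TMT, against 587, 641 and 563 CPM with no odor (1.22 ± 0.30, adjusted p = 0.000761). No odor and odor libraries did not overlap in these either. Olfr1262 of MOR234 was the most abundant of the enriched members, with 3273, 4129 and 3300 CPM at 100% TMT, against 1414, 2117 and 1861 CPM with no odor (1.00 ± 0.27, adjusted p = 0.00253). Its relatives in MOR234, Olfr1261 (0.16 ± 0.27) and Olfr1263 (-0.01 ± 0.27), did not pass the test. Olfr1231 lost its call without replicate 3 (1.01), Olfr1238 without replicate 2 (1.07), and Olfr1262 without replicate 1 (0.98) and with size factors of all genes (0.70).

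Olfr1220 and Olfr1229 of MOR233 had the weakest calls. Olfr1220 had 425, 545 and 374 CPM at 100% TMT, against 135, 342 and 73.5 CPM with no odor (1.40 ± 0.51, adjusted p = 0.0429, edgeR), and it was lost without any 1 of the 3 replicates (1.37, 1.91 and 1.10). Olfr1229, the eleventh by size and outside the rule for named genes, had 1976, 1519 and 1361 CPM at 100% TMT, against 481, 1475 and 980 CPM with no odor (0.82 ± 0.29, adjusted p = 0.0321), and was the only called member whose groups overlapped. It was not called without replicate 1 or replicate 3.

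The 2 depleted members were Olfr1258 of MOR232 and Olfr1215 of MOR233, both without a zone call. Olfr1258 had 2444, 3116 and 2245 CPM at 100% TMT, against 4873, 4105 and 12366 CPM with no odor (-1.28 ± 0.29, adjusted p = 0.00014, edgeR). Olfr1215 had 106, 156 and 119 CPM at 100% TMT, against 271, 492 and 514 CPM with no odor (-1.71 ± 0.55, adjusted p = 0.016). The no odor library of replicate 3 was far above the others for Olfr1258, and without that replicate its log2 fold change was -0.70 and no longer called. Olfr1215 was not called without replicate 2 (-1.74) or replicate 3 (-1.50), and neither gene was called by DESeq2 (-1.26 and -1.69).

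**Figure D3:**
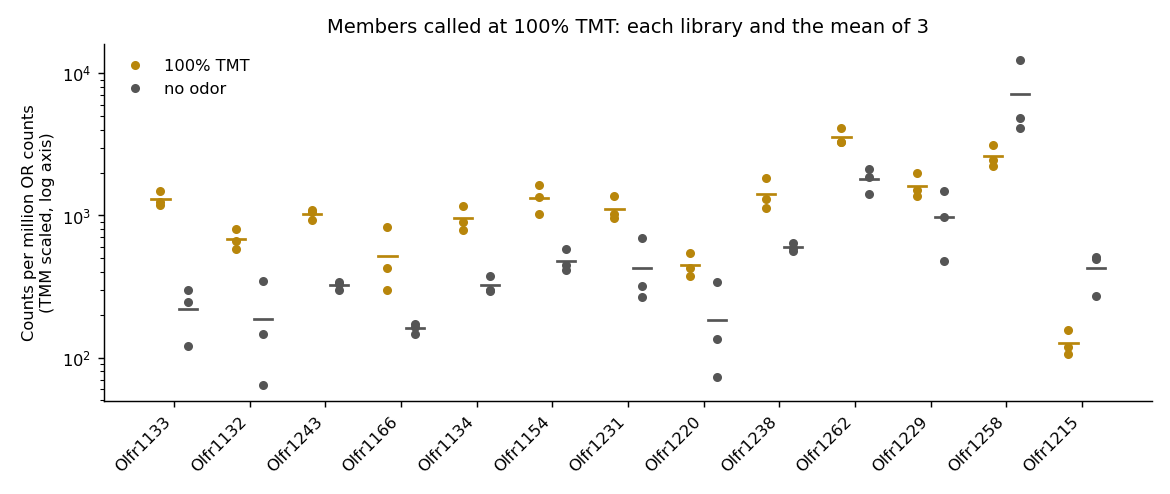
CPM (log axis) of the 13 members called at 100% TMT, in each of 3 libraries at 100% TMT (gold) and with no odor (gray), with the mean as a line, in order of the fitted log2 fold change. In 12 of the 13 the groups do not overlap, with Olfr1229 as the exception, and the 2 members on the right are lower at 100% TMT. Among all members, called or not, 31 had groups that did not overlap at 100% TMT, and the share among all ORs was not counted. The lack of overlap is therefore no further support for the calls.

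The members called differed between the concentrations of TMT, which does not by itself show a change with concentration. At 1% TMT 1 of the 121 ORs was called higher and 0 lower, against 4.69% and 0.184% of all ORs (2 members had an unadjusted p below 0.05 on the lower side, and DESeq2 also called 1). The called member was Olfr1132, with 1228, 1183 and 726 CPM at 1% TMT, against 352, 65.2 and 146 CPM with no odor (2.51 ± 0.40, adjusted p = 1.26e-08, edgeR), and it was called under all 10 alternative settings. Its log2 fold change was 0.23 ± 0.57 at 0.01%, 0.92 ± 0.50 at 0.1% and 1.97 ± 0.49 at 100% TMT, and 100% and 1% TMT did not differ in a direct test (-0.58 ± 0.37, adjusted p = 0.442). Olfr1133 had 0.16 ± 0.54 at 1% TMT, with 154, 327 and 262 CPM at 1% TMT, against 123, 304 and 244 CPM with no odor, and these overlapped. Olfr1134 lay between them, with 768, 642 and 484 CPM at 1% TMT, against 383, 304 and 293 CPM with no odor (0.94 ± 0.40, adjusted p = 0.275), without overlap and not called. Neighboring receptors of the mixed stretch thus had unlike series over the 4 concentrations, Olfr1132 being called from 1% on and Olfr1133 at 100% only, though the difference between the genes was not tested.

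The direct comparison of 100% with 1% TMT, fitted on all TMT libraries, called 5 of the 121 ORs higher and 1 lower, against 6.34% and 1.75% of all ORs. Olfr1133 rose by 2.46 ± 0.40 on the log2 scale (adjusted p = 1.99e-06, edgeR) and Olfr1154 by 1.65 ± 0.35 (adjusted p = 0.000292), and both were called under all 9 alternatives. Olfr1243 (0.98 ± 0.32), Olfr1262 (0.75 ± 0.24) and Olfr1204 of MOR232 (1.48 ± 0.50, adjusted p = 0.0464) were also higher at 100% TMT, and Olfr1115 of MOR264 was lower (-1.09 ± 0.37, adjusted p = 0.048). Without the replicate block only Olfr1133 and Olfr1154 were called. Olfr1204 had 404, 331 and 289 CPM at 100% TMT and 128, 113 and 141 CPM at 1% TMT, with 135, 278 and 343 CPM in the no odor libraries, so that it was not called against no odor at either concentration. Leaving out a replicate ended the calls of Olfr1204 (any of the 3), Olfr1243 (any of the 3), Olfr1262 (replicate 2 or 3) and Olfr1115 (replicate 1 or 3).

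**Figure D4:**
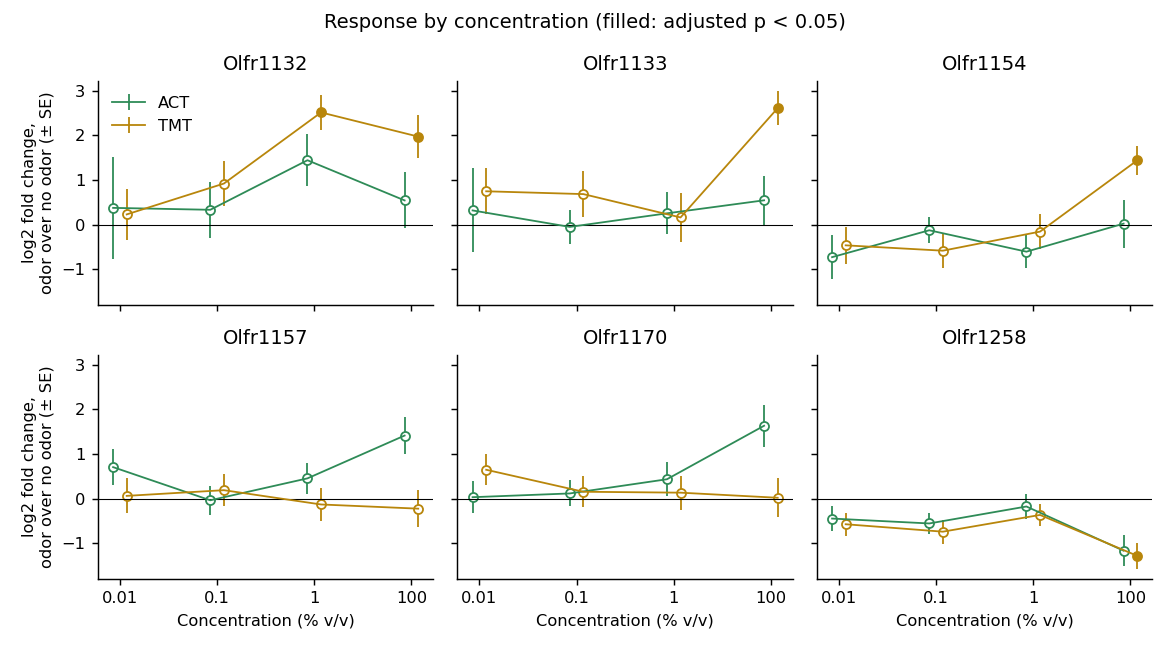
Log2 fold change of odor over no odor (± SE, 3 mice per group) for 6 members at 4 concentrations (v/v, low to high) of ACT (green) and TMT (gold), filled where called at an adjusted p below 0.05. Olfr1132 is filled at 1% and 100% TMT, Olfr1133, Olfr1154 and Olfr1258 at 100% TMT, and no ACT point is filled, Olfr1157 and Olfr1170 having their highest ACT value at 100%.

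The other members at 1% TMT with a small p were not called. Olfr1153 of MOR177 had 3, 12 and 10 counts at 1% TMT, against 0, 0 and 2 counts with no odor, a ratio of 10.7 with an exact 95% counting interval from 2.68 to 93.5 (adjusted p = 0.179, edgeR). Olfr1214 had 588, 800 and 686 CPM at 1% TMT, against 199, 326 and 684 CPM with no odor (0.90 ± 0.38, adjusted p = 0.275), and the groups overlapped.

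At 0.1% TMT 0 members were called higher and 1 lower, against 1.38% and 0.643% of all ORs, with 0 and 7 at an unadjusted p below 0.05 and 0 called by DESeq2. Here and in the other odor comparisons and direct contrasts, counts at an unadjusted p below 0.05 are no result about the members. The number among all ORs is given beside them only at 100% ACT. Olfr1225 of MOR233 had 551, 339 and 526 CPM at 0.1% TMT, against 1687, 708 and 637 CPM with no odor (-0.99 ± 0.29, adjusted p = 0.0394, edgeR). The no odor library of replicate 1 was the highest by a wide margin, and the call was lost without replicate 1 (-0.65) or replicate 2 (-0.96), by DESeq2 and without the replicate block (-1.09). Olfr1225 had -0.51 ± 0.35 at 1% and 0.01 ± 0.35 at 100% TMT. Olfr1258 (-0.74 ± 0.27, adjusted p = 0.186) and Olfr1205 (-0.79 ± 0.32, adjusted p = 0.394) were next by p.

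At 0.01% TMT 0 of the 121 ORs were called by edgeR and 0 by DESeq2, with 4 at an unadjusted p below 0.05, against 0.46% of all ORs called. The smallest p were those of Olfr1258 (-0.58 ± 0.26), Olfr1247 (-0.64 ± 0.30) and Olfr1226 (-0.50 ± 0.24), all with an adjusted p of 0.842 or more.

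No member was called at any ACT concentration. At 0.01% and 100% ACT the main edgeR test called 0 of all 1088 ORs. The study reported enriched ORs at each of these concentrations, also with edgeR. Why the results differ was not tested. The absence of calls there thus does not show that the members did not respond. At 100% ACT 0 of the 121 ORs were called by edgeR and 0 by DESeq2, against 0% and 2.11% of all ORs. An unadjusted p below 0.05 was found for 10 members, 8 of them positive, against 155 of all 1088 ORs. Olfr1170 had 606, 1428 and 2231 CPM at 100% ACT, against 497, 285 and 499 CPM with no odor (1.63 ± 0.47, adjusted p = 0.133, edgeR). Olfr1157 had 516, 1680 and 2231 CPM at 100% ACT, against 298, 772 and 478 CPM with no odor (1.41 ± 0.42, adjusted p = 0.146). Olfr1258 had 2243, 3108 and 2617 CPM at 100% ACT, against 4718, 5102 and 8612 CPM with no odor (-1.17 ± 0.35, adjusted p = 0.154). The 100% ACT library of replicate 1 was the lowest of its group for Olfr1170 and Olfr1157, and its level of Olfr1157 lay below 1 of the no odor libraries. These 3 genes passed the threshold under edgeR's likelihood ratio test, which called 3.95% of all ORs. They also passed when all pS6 libraries were fitted jointly, where 4.41% of all ORs were called.

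Without replicate 1, 5 members were called at 100% ACT, all higher, against 7.54% of all ORs called higher. These were Olfr1213 (2.42), Olfr1170 (2.31), Olfr1124 (1.91), Olfr1157 (1.72) and Olfr1166 (1.71). Olfr1124 of MOR264 had 404, 1323 and 1844 CPM at 100% ACT, against 497, 336 and 562 CPM with no odor (1.21 ± 0.48 with all libraries). Olfr1166 had 426, 630 and 1598 CPM at 100% ACT, against 323, 403 and 250 CPM with no odor (1.26 ± 0.50). Olfr1213 had 740, 693 and 861 CPM at 100% ACT, against 646, 67.1 and 270 CPM with no odor (1.53 ± 0.54). In Olfr1124 and Olfr1166 replicate 1 was again the lowest 100% ACT library, while in Olfr1213 the no odor library of replicate 1 was the highest. Olfr1170 and Olfr1166 share reads: 11.0% of the 50-base stretches of Olfr1170 occur in Olfr1166.

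Some members were known as ACT receptors from earlier work. The study's supplement marks 6 of the 121 ORs as activated by ACT in a heterologous reporter assay, and 4 as ACT ORs of an earlier pS6 study, with Olfr1157 and Olfr1238 on both lists. All 6 of the first list had positive values at 100% ACT, from 0.32 to 1.63 with a median of 0.97, but 0 were called by edgeR or DESeq2, with Olfr1157, Olfr1170 and Olfr1238 at an unadjusted p below 0.05. By comparison, 50.4% of all ORs had positive values there and their median was 0.00. The edgeR test called 0% of all ORs there, so its lack of calls does not set this list apart. At the lower concentrations the list was less uniform, with 6 of 6 positive at 0.01% ACT (median 0.41), 2 of 6 at 0.1% ACT (median -0.12) and 5 of 6 at 1% ACT (median 0.44), beside medians of all ORs of 0.02, 0.01 and 0.02. At 0.01% ACT several of these values leaned on replicate 1, the library with the lowest correlation. It had 3225 CPM of Olfr1238 (736 and 636 in the others), 2154 of Olfr1157 (493 and 607) and 1606 of Olfr1209 (463 and 355). For Olfr1126 it was the lowest library (12.7 CPM). Olfr1238 had 949 to 1705 CPM at 100% ACT, against 499 to 670 CPM with no odor (0.99 ± 0.38, adjusted p = 0.24, edgeR), without overlap. Olfr1231 (0.37 ± 0.42), Olfr1209 (0.32 ± 0.41) and Olfr1126 (0.94 ± 0.92), the last with 1, 10 and 16 counts against 7, 2 and 3, had overlapping groups. Of the second list, 3 of 4 were positive (median 0.81), Olfr1245 with 0.62 ± 1.01 and Olfr1222 with -0.24 ± 0.33 completing it. At 100% TMT, 2 of the 6 in vitro ACT receptors, Olfr1231 and Olfr1238, were called higher, against 11.6% of all ORs.

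**Figure D5:**
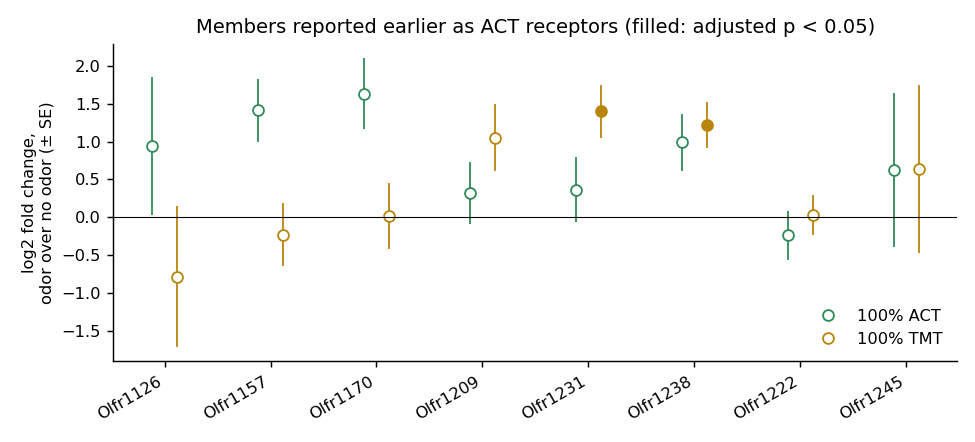
Log2 fold change of odor over no odor (± SE, 3 mice per group) at 100% ACT (green) and 100% TMT (gold) for the 8 members known as ACT receptors from earlier work, filled where called. All but Olfr1222 have a positive value at 100% ACT with none filled, and Olfr1231 and Olfr1238 are filled at 100% TMT.

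The difference between the responses to ACT and TMT was tested directly at matched concentrations. At 100%, 0 of the 121 ORs were called by edgeR and 0 by DESeq2, against 0% of all ORs, with 13 at an unadjusted p below 0.05. The smallest p were those of Olfr1243 (-1.51 ± 0.45, adjusted p = 0.185), Olfr1220 (-1.77 ± 0.55, adjusted p = 0.206) and Olfr1262 (-1.11 ± 0.35, adjusted p = 0.206), all lower with ACT. Olfr1157 (1.70 ± 0.60) and Olfr1170 (1.68 ± 0.56) had values of the other sign. Without replicate 1, Olfr1124 (2.19), Olfr1170 (1.98), Olfr1262 (-1.40) and Olfr1154 (-2.43) were called, against 5.61% of all ORs. At 1%, 0 were called by edgeR and 0 by DESeq2, against 0% of all ORs, with 8 at an unadjusted p below 0.05. Olfr1132 had -1.12 ± 0.98 in this contrast, so that its response to ACT (1.44 ± 0.59, with 727, 220 and 144 CPM at 1% ACT, against 203, 103 and 59.7 CPM with no odor) was not shown to differ from its response to TMT. Olfr1204 (1.94 ± 0.68, adjusted p = 0.728) and Olfr1243 (-1.19 ± 0.46, adjusted p = 0.967) were among the next by p, and Olfr1201, the first, rested on few counts.

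ACT at 1% and below called no member. At 1% ACT 0 of the 121 ORs were called by edgeR and 0 by DESeq2, against 1.65% of all ORs, with 6 at an unadjusted p below 0.05. Beside Olfr1132, these included Olfr1225, with 502, 151 and 623 CPM at 1% ACT, against 558, 1079 and 737 CPM with no odor (-0.99 ± 0.37, adjusted p = 0.252), which was called without replicate 3 (-1.44), and Olfr1197, with 1592, 1611 and 2092 CPM at 1% ACT, against 989, 1319 and 976 CPM with no odor (0.69 ± 0.28, adjusted p = 0.338). At 0.1% ACT 0 were called by edgeR and 0 by DESeq2, against 0.643% of all ORs, with 2 at an unadjusted p below 0.05, Olfr1250 (-0.79 ± 0.32) and Olfr1258 (-0.56 ± 0.24). Without replicate 3, Olfr1213 was called at 0.1% ACT (-2.16). At 0.01% ACT 0 were called by edgeR and 0 by DESeq2, against 0% and 0.184% of all ORs, and 0 had an unadjusted p below 0.05. There Olfr1132 had 969, 60.7 and 14.8 CPM at 0.01% ACT, against 112, 104 and 106 CPM with no odor, the high value being that of the library with the lowest correlation.

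Between 100% and 1% ACT 0 of the 121 ORs were called by edgeR, against 0% of all ORs, with 9 at an unadjusted p below 0.05, and DESeq2 called 1, Olfr1258 (-0.93). Olfr1258 (-0.96 ± 0.26, adjusted p = 0.212), Olfr1170 (1.27 ± 0.40, adjusted p = 0.212) and Olfr1216 (-0.86 ± 0.31, adjusted p = 0.334) had the smallest p in edgeR. Without replicate 1, Olfr1170 (1.63) and Olfr1157 (1.55) were called, against 5.88% of all ORs.

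Olfr1258 was among the most abundant members without odor and was the member with the smallest p on the lower side in several comparisons. Its log2 fold changes were -0.45 ± 0.27, -0.56 ± 0.24, -0.18 ± 0.29 and -1.17 ± 0.35 at the 4 concentrations of ACT from low to high, and -0.58 ± 0.26, -0.74 ± 0.27, -0.37 ± 0.25 and -1.28 ± 0.29 at the same concentrations of TMT. The 2 lower concentrations of an odorant were compared with the same no odor mice, as were the 2 higher ones, and only the last value was called. Within each odorant the value at 100% was the lowest of the 4. The direct test of 100% against 1% TMT gave -0.88 ± 0.33 (adjusted p = 0.123, edgeR). Its coding stretch at chr2:89930156-89930185 on the plus strand has the common TAT form of the motif.

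In the pS6 libraries the share of counts on the 121 ORs averaged lower with odor than without in each comparison, by an amount that no test here could call. The share averaged 7.94% ± 1.07 at 100% ACT and 8.55% ± 0.18 with no odor, and 7.46% ± 0.73 at 100% TMT and 8.29% ± 0.71 with no odor (SD, n = 3 each), with exact two-sided permutation p of 0.5 and 0.2. Over the 8 odor comparisons the exact p ran from 0.1 to 0.6 and the p adjusted over 9 comparisons from 0.3 to 0.6, and 3 against 3 mice cannot reach less than 0.1. At 0.01% and 0.1% TMT it averaged 8.78% ± 0.31 and 8.37% ± 0.15, against 9.24% ± 0.16 in the no odor mice that both share, without overlap in either. The differences from no odor ran from -0.94 to -0.14 percentage points over the 8 comparisons, each no odor set serving in 2 of them. Within littermates, the share was lower with odor in 3 of 3 pairs at 0.01%, 0.1% and 1% TMT and in 2 of 3 pairs at each other concentration, and an exact two-sided sign-flip test over 3 pairs, added after the data were seen, cannot give less than the 0.25 found for those TMT groups.

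Levels per kb of transcript allow genes to be set roughly side by side. They are CPM of OR counts without TMM, divided by the length of the longest GENCODE M21 transcript. The counts were made on the authors' own gene models, whose lengths may differ. Among the no odor pS6 libraries the highest mean levels of the 121 ORs were those of Olfr1228 (1260.3 CPM per kb), Olfr1112 (1096 CPM per kb) and Olfr1258 (977 CPM per kb). In dorsal mucosa Olfr1176 (2149 CPM per kb) and Olfr1133 (1923 CPM per kb) had the highest levels, and in ventral mucosa Olfr1196 (1289 CPM per kb) and Olfr1264 (1185 CPM per kb). The order of the pS6 levels thus differed from that of either mucosa. These are unlike measures, since pS6 libraries hold immunoprecipitated RNA of olfactory epithelium and mucosa libraries total RNA of a dissected part.

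The 5′ ends of the genes were searched for the homeodomain core TAATTA, a sequence known from OR promoters. Both strands were searched in windows of 250 bases before to 50 bases after the GENCODE M21 gene start. TAATTA occurred in 40 of the 119 windows of these ORs (33.61%) and in 267 of 1083 OR windows (24.65%). By family, TAATTA was present in 8 of 12 windows of MOR177, 6 of 12 of MOR174, 4 of 7 of MOR232 and 0 of 17 of MOR233. The match says only that these letters are present. In MOR232, the family of Olfr1258, the 4 matches sat in a shared surrounding, given with the core in capitals (GRCm38, plus strand).
Olfr1202: tatcaaagaagcTAATTAattcctgggaga
Olfr1204: tatcaaagaagtTAATTAactcctgggaga
Olfr1255: caaaacaataaaTAATTAattcctgggagg
Olfr1258: catcacaggaaaTAATTAattcctgagaga
They began 87, 105, 28 and 178 bases before the GENCODE M21 gene start, in this order. These distances depend on where each 5′ end is annotated. The RefSeq start of Olfr1258, at 89921944, lies upstream of its printed stretch at 89927119 to 89927148. Of these 4 genes, Olfr1202, Olfr1204 and Olfr1255 were called ventral and Olfr1258 had -1.18 ± 0.57 (adjusted p = 0.0753, edgeR).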

How the data were processed

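The authors aligned 50-base reads with STAR to GRCm38, using gene models extended by the UTRs of ORs, and estimated gene counts with RSEM. The deposited tables hold these counts, rounded to whole numbers, for intact ORs only. The deposited mean signal columns are the authors' counts divided by size factors of all genes and averaged, and they served only to recover those size factors. Columns of the authors' own comparisons (log2 fold changes, p-values) were not used. The library kit keeps no strand and no molecular identifiers, so overlapping and near-identical ORs cannot be told apart fully. One 0.1% TMT library cites another concentration in its description and was grouped by its odor label.

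Counts were tested with edgeR 4.0.16 in R 4.3.3 (glmQLFit with robust, glmQLFTest, two-sided), with TMM over ORs, no filter on low counts and the replicate number as a block, as in the study's code. Each comparison used its own 6 libraries. The direct contrasts used all 18 libraries of an odorant or all 36 pS6 libraries. SEs were derived from the F statistic of each log2 fold change, so they restate the test. CPM are relative to OR counts after TMM scaling, except in the levels per kb, which were left without TMM. The numbers mark littermates by the study's methods. Of 24 pairs of same-numbered odor libraries, 14 had deviations correlated above 0.1 (range -0.107 to 0.366). For the mucosa, whose numbers are not described as litters, the 3 correlations were -0.341, -0.484 and -0.004. The study gives 3 mice for the mucosa RNA-Seq, and the labels do not say which libraries share a mouse. The test was also run on simulated counts, with a fixed dispersion, no litter effect and as many ORs raised as lowered. That setting is simpler than the data and is no support for the calls.

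Named genes were, for each odor comparison and direct contrast, the called members with the 10 largest log2 fold changes in each direction or, where fewer than 3 were called, the 3 with the smallest p. For the mucosa they were the 8 largest in each direction. Members of 2 lists of earlier ACT receptors were added. The rule for the members uses gene names only and no values. The members, lists and families were nonetheless chosen with earlier results of these data known. Shared 50-base stretches were counted over GENCODE M21 transcripts of ORs. Alternatives were DESeq2 1.42.0, no TMM, size factors of all genes, edgeR's likelihood ratio test, filterByExpr, no block, joint fits and leaving out each replicate. Python 3.11.15 with pandas 2.3.3, scipy 1.17.1 and matplotlib 3.10.9 served for tables and figures.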

Additional observations from a re-analysis of the deposited data

How the results depend on the processing

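No zone call changed sign under any alternative, but the balance before Olfr1178 depended on the scaling. Of the 44 ORs up to Olfr1176, 18 were called dorsal and 14 ventral without TMM (median 0.59), and 19 and 16 with size factors of all genes (median 0.77). The medians of MOR176, MOR177 and MOR238 fell below 0 without TMM. Shares of all ORs called under the same settings follow in parentheses. The number of called members was 89 to 101 when the method, scaling, filter or block was changed (71.8% to 80.6%). Leaving out a replicate gave 58 to 84 zone calls (50.1% to 75.1%). At 100% TMT, against 13 calls, DESeq2 gave 8 (10.7%) and leaving out a replicate 7 to 11 (9.01% to 11.6%). At 1% TMT the likelihood ratio test called 2 members (5.06%), and leaving out a replicate gave 1 to 2 (3.86% to 4.96%). The single call at 0.1% TMT fell to 0 under DESeq2, size factors of all genes, the likelihood ratio test, filterByExpr, no replicate block and the joint fit (0.46% to 2.3%). Leaving out a replicate gave 0 to 1 at 0.1% TMT (1.01% to 1.75%). At 100% ACT, against 0 calls, the likelihood ratio test gave 3 (3.95%), the joint fit 3 (4.41%) and leaving out a replicate 0 to 5 (0.46% to 8.0%). Leaving out a replicate gave 0 to 1 calls at 0.1% ACT (0% to 1.1%) and 0 to 1 at 1% ACT (0% to 1.93%). Between 100% and 1% TMT, against 6 calls, leaving out a replicate gave 2 to 4 (5.88% to 8.0%). Between 100% and 1% ACT, against 0 calls, DESeq2 gave 1 (1.75%) and leaving out a replicate 0 to 2 (0% to 5.88%). For the response to ACT minus that to TMT at 100%, leaving out a replicate gave 0 to 4 (0% to 5.61%). The causes were not tested, though leaving out a replicate also leaves fewer libraries.

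Without the replicate block, the calls were 100 for the zones (78.5% of all ORs) and 2 between 100% and 1% TMT (6.43%). Against no odor they were 11 at 100% TMT (12.6%), 1 at 1% TMT (4.41%) and 0 at 0.1% TMT (1.01%). The other comparisons had 0 (0% to 0.643%). For the named values, 312 tests of called members kept their call and 61 lost it, and 20 of uncalled members passed the threshold. No called value changed sign. The 31 members with fewer than 10 counts at the median of no odor libraries limit what low receptors can show, and no 3 against 3 permutation can go below p = 0.1.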
